A study of Mus musculus with 6 samples.

Results

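The 8 genes described here encode the constant regions of the mouse Ig heavy chains, *Ighm*, *Ighd*, *Ighg3*, *Ighg1*, *Ighg2b*, *Ighg2c*, *Ighe* and *Igha*. They were chosen by name, as the complete set of heavy chain constant genes in the annotation, out of 54446 genes with a value. RNA was sequenced from naive splenic B cells that had been purified by negative magnetic selection and then cultured for 7 days in the presence of IL-4 (20 ng/ml) and of LPS at 20 ug/ml. One group came from *Tent5c* KO mice and the other from their WT littermates, 3 libraries each, on the same mixed C57BL/6J X CBA background and at 12 to 15 weeks of age according to the methods. Both groups received the same stimulation, so there is no unstimulated library. Each replicate number stands for a KO and a WT littermate, called a pair below, and the labels give the same number as the batch. The KO is constitutive, so the mice also lacked TENT5C before the culture began. The question behind the comparison was whether loss of TENT5C, a cytoplasmic poly(A) polymerase, alters the level of Ig mRNAs. Values are counts of fragments divided by a size factor for each library, called normalized counts.

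The constant region sets the class, or isotype, of an antibody. A naive B cell transcribes the variable exon through *Ighm* and *Ighd* and makes IgM and IgD by alternative processing of the same primary transcript. In class switch recombination, a deletion brings a downstream constant gene next to the variable exon. IL-4 given with LPS is the classic in vitro signal for switching to IgG1 and IgE, whereas LPS alone favours IgG3 and IgG2b. Each gene ends in alternative exons and poly(A) sites that give either a secreted antibody or a membrane receptor. A count per gene adds up both forms, and it also includes germline transcripts, which contain the constant exons without a variable exon.

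All 8 genes lie on the minus strand of chromosome 12 (GRCm38). The first exon of *Ighd* starts 6.4 kb downstream of that of *Ighm*, *Ighg3* follows at 61.5 kb, *Ighg1* at 92.2 kb, *Ighg2b* at 114.8 kb, *Ighg2c* at 133.8 kb, *Ighe* at 149.5 kb and *Igha* at 162.5 kb. *Ighm* spans 113418558 to 113422730 and *Ighg1* 113325240 to 113330523. *Ighe* spans 113269260 to 113273248 and *Igha*, the last of the row, 113254830 to 113260236. No exon of another annotated gene overlaps them.

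The 4 IgG genes are close relatives, and the hinge is where they differ most plainly. The hinge is the flexible stretch between the arms and the stem of the antibody, and its cysteines join the pair of heavy chains. The hinge exon (exon 2 of the secreted form) is shown for each IgG gene, in order along the chromosome and with the cysteine codons of the reading frame in capitals, because its length and cysteines tell the subclasses apart. The sequences come from the Gencode vM21 transcripts, at chr12:113360529-113360576 for *Ighg3*, chr12:113329844-113329882 for *Ighg1*, chr12:113307261-113307326 for *Ighg2b* and chr12:113288263-113288325 for *Ighg2c*, all minus strand.
Ighg3: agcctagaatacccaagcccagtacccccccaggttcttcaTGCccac
Ighg1: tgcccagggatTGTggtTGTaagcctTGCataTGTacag
Ighg2b: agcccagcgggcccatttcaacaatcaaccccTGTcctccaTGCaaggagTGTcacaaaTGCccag
Ighg2c: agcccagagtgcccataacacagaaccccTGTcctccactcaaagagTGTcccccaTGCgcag
The exon is shortest in *Ighg1*, at 39 bases with 4 cysteine codons. It has 48 bases and 1 such codon in *Ighg3*, 66 bases and 4 in *Ighg2b*, and 63 bases and 3 in *Ighg2c*. *Ighg2b* and *Ighg2c* had 94.2% identical bases in the exon of the CH2 domain, 87.6% in that of CH1 and 76.2% in that of CH3. In CH1, *Ighg1* was as close to both, with 88.3% identity to *Ighg2b* and 88.0% to *Ighg2c*. Within the secreted transcripts, the longest unbroken run of identical bases was 78 between *Ighg2b* and *Ighg2c* and 37 between *Ighg1* and any other member. Over all annotated transcripts of the members, secreted and membrane, no stretch of 75 bases, the read length, of *Ighm*, *Ighd*, *Ighg1*, *Ighe* or *Igha* occurred in another gene, and at most 0.77% of the 75-base stretches of *Ighg2b*, *Ighg3* and *Ighg2c* occurred in another member. Some mouse strains carry *Ighg2a* in place of *Ighg2c*. Reads were aligned to a C57BL/6J genome, and how CBA alleles at this locus aligned was not tested.

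The ends of the mRNAs are shown for the 3 members with the most fragments, since the tail that TENT5C extends is added just after the poly(A) signal. The 30 bases around the signal AATAAA (capitals) of the secreted form lie at chr12:113420749-113420778 for *Ighm*, chr12:113328891-113328920 for *Ighg1* and chr12:113271181-113271210 for *Ighe*, minus strand, also from Gencode vM21.
Ighm: ataaaaattagaAATAAAaaaaatccattc
Ighg1: cctccctgtgtaAATAAAgcacccagcact
Ighe: ggaagctaccccAATAAAcactcagtgcct
AATAAA was present in the last 50 bases of the secreted transcript, read on the transcript strand, in 7 of the 8 members. The exception was the annotated secreted form of *Ighd*. Of the membrane forms, 5 of 8 held AATAAA and 1 held the variant ATTAAA. Of all 58809 annotated transcripts examined, 40.6% held AATAAA and 11.9% held ATTAAA in this window. A match of letters does not show which end was used in these cells.

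Depth ran from 5393558 fragments on genes in WT of pair 3 to 6793520 in KO of pair 3, and 3 fragments correspond to 2.72 to 3.61 normalized counts. The B cell markers had summed levels of 49603 to 57664 normalized counts in every library. Of the 7 plasmablast markers, *Xbp1*, *Mzb1*, *Jchain* and *Irf4* were abundant, and *Prdm1* had a mean of 333 normalized counts over the 6 libraries. *Sdc1* was scarce, with 34 to 60 fragments per library, and *Tnfrsf17* had at most 2 fragments. Marker lists of other cells were low, with sums of 48.6 to 140 normalized counts for 11 T cell genes, 21.0 to 133 for 10 myeloid genes and 0 to 5.72 for 7 erythroid genes, and *Ly6g*, *S100a8* and *S100a9* were at 0 throughout. *Tent5c* itself had 1255, 767 and 1585 normalized counts in the WT libraries of pairs 1, 2 and 3 and 1993, 993 and 1170 in the KO libraries. It was thus higher in the library labelled KO in pairs 1 and 2 and lower in pair 3, with a log2 fold change of 0.20 (SE 0.19, adjusted *p* = 0.97 by limma). Which part of the gene the KO allele lacks was not examined here, so a count over the whole gene does not check the genotype, and the directions below are those of the libraries labelled KO and WT.

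*Ighm* and *Ighg1* dominated the heavy chain mRNA of these cells. Together they took 90.2% to 97.1% of the fragments on the 8 genes in each library. Divided by the length of all exons, the mean level over the 6 libraries was 21437 normalized counts per kb for *Ighm* and 10731 for *Ighg1*. *Ighe* came next with 1382 normalized counts per kb, followed by *Ighg2b* with 208, *Ighd* with 180, *Ighg3* with 56.1, *Ighg2c* with 34.4 and *Igha* with 17.0. *Ighm* was above *Ighg1* in 5 of 6 libraries on this scale. The neighbours *Ighg2b* and *Ighd* could not be ordered, since each was the higher one in 3 libraries. The remaining neighbours kept their order in 6 of 6 libraries, although only the ranges of *Ighg1*, *Ighe* and *Ighg2b* were fully apart from one to the next. With the length of the secreted transcript in place of all exons, *Ighm* (27080 per kb) and *Ighg1* (25849 per kb) could not be ordered, each being the higher one in 3 libraries, and neither could *Igha* (41.3 per kb) and *Ighg2c* (41.1 per kb). The gene for IgE was thus the third most abundant, and *Igha*, at the far end of the locus, was among the lowest on both scales.

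**Figure D1:**
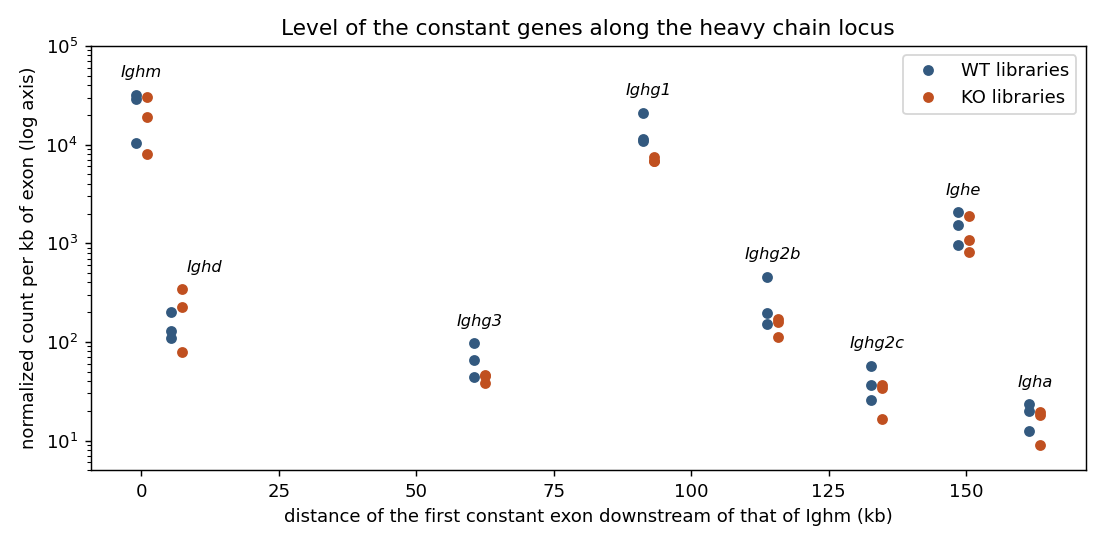
Level of each heavy chain constant gene (normalized count per kb of exon, log axis) against the distance of its first exon downstream of that of *Ighm* (kb). Each point is a library, 3 WT in blue and 3 KO in orange. Level did not follow position: *Ighg1* at 92.2 kb and *Ighe* at 149.5 kb stood above their neighbours on both sides.

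*Ighg1*, the target of IL-4 driven switching, was the member in which the genotypes were apart. It had 28267, 29341 and 54594 normalized counts in the WT libraries of pairs 1, 2 and 3 and 19261, 17735 and 17683 in the KO libraries. Every KO library was below every WT library, a pattern met by 3.44% of the 12322 genes tested and by 1 of the 8 members. The WT libraries spread over a 1.93-fold range, with pair 3 far above the others, while the KO libraries stayed within 1.09-fold of each other. The mean was 37401 ± 14900 (SD, n = 3) in WT and 18226 ± 896 (SD, n = 3) in KO. The KO library held 68.1%, 60.4% and 32.4% of the level of its WT littermate, and the log2 fold change was −0.97 (SE 0.20), with an unadjusted *p* of 0.00215 and an adjusted *p* of 0.693 over all genes by limma. In these bulk libraries, fewer cells that have switched to IgG1 and less *Ighg1* mRNA per switched cell cannot be told apart.

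*Ighm*, which encodes the heavy chain of IgM, varied more between pairs than between genotypes. Its normalized counts were 60334, 19386 and 55042 in WT and 57062, 15221 and 35536 in KO for pairs 1, 2 and 3. Pair 2 was low in both genotypes, so the groups overlapped, yet the KO library was the lower one in each pair, at 94.6%, 78.5% and 64.6% of WT. The log2 fold change was −0.35 (SE 0.12, unadjusted *p* = 0.0200, adjusted *p* = 0.97 by limma).

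The other IgG genes were scarce but showed the same order within pairs. *Ighg2b*, which LPS induces, had 529, 408 and 1228 normalized counts in WT and 428, 297 and 458 in KO. *Ighg3*, the IgG class typical of responses to LPS, had 110, 164 and 243 in WT and 97.2, 117 and 114 in KO. Both were lower in KO in 3 of 3 pairs and the groups overlapped, with log2 fold changes of −0.73 (SE 0.21, unadjusted *p* = 0.0110, adjusted *p* = 0.911 by limma) and −0.58 (SE 0.19, unadjusted *p* = 0.0179, adjusted *p* = 0.97 by limma). *Ighg2c*, an IgG class linked to interferon-γ rather than IL-4, had 48.2, 34.5 and 75.9 normalized counts in WT and 48.1, 21.9 and 45.4 in KO. These rest on 23 to 63 fragments per library, the littermates of pair 1 had 51 fragments each, and the log2 fold change was −0.45 (SE 0.22, unadjusted *p* = 0.0827 by limma).

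*Ighe*, the heavy chain gene of IgE and the other class that IL-4 induces, did not share the order of *Ighg1*. It had 1509, 2414 and 3265 normalized counts in WT and 1284, 2974 and 1693 in KO. The KO library was lower in pairs 1 and 3 and higher in pair 2, the groups overlapped, and the log2 fold change was −0.29 (SE 0.21, unadjusted *p* = 0.205 by limma). Without pair 3 it was 0.034.

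*Ighd* encodes IgD, which naive B cells carry on their surface beside IgM and lose on activation. Its normalized counts were 378, 246 and 206 in WT and 428, 149 and 652 in KO. The KO library was higher in pairs 1 and 3 and lower in pair 2, and the WT and KO libraries of pair 3 were the second lowest and the highest of the 6. The log2 fold change was 0.37 (SE 0.39, unadjusted *p* = 0.378 by limma), and it was −0.27 without pair 3. *Igha*, the gene of the mucosal class IgA, had 62.3, 33.5 and 53.0 normalized counts in WT and 48.1, 23.8 and 51.8 in KO. It was lower in KO in 3 of 3 pairs, with log2 ratios of −0.37, −0.47 and −0.03 in pairs 1, 2 and 3. These rest on 25 to 66 fragments per library, and the log2 fold change was −0.29 (SE 0.20, unadjusted *p* = 0.182 by limma).

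**Figure D2:**
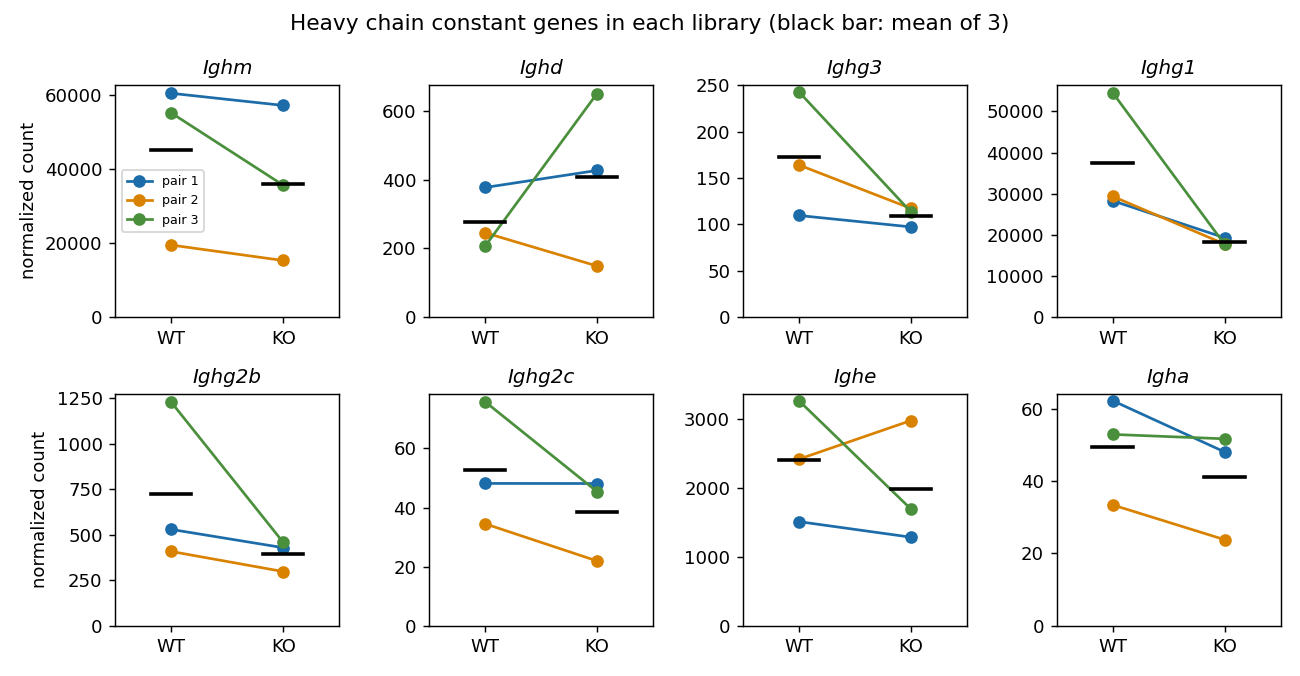
Normalized counts of the 8 genes in WT and KO libraries, with a line joining the littermates of a pair and a black bar at the mean of 3 libraries. Each panel has its own axis from 0. The KO libraries of *Ighg1* lie between 17683 and 19261 below all WT libraries, and *Ighd* moves up in pair 3 where the others move down.

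No member passed an adjusted *p* of 0.05 by limma, and 0% of the 12322 genes tested did so in either direction. edgeR called 0 genes as well, and DESeq2 called 22 genes lower (0.222% of the 9894 with an adjusted *p*) and 1 higher (0.0101%), with 0 members among them. At an unadjusted *p* under 0.05 by limma, 4 of the 8 members were lower in KO (*Ighm*, *Ighg3*, *Ighg1* and *Ighg2b*) against 3.03% of all genes, and 0 were higher against 1.67%. By edgeR the number lower was also 4, against 2.99% of all genes. A total of 6 of the 8 were lower in KO in all 3 pairs (counting *Ighg2c*, whose fragments were equal in pair 1 before scaling), against 13.1% of all genes and 12.0% of the genes outside the Ig loci. The log2 fold change was negative in 7 of the 8, against 49.8% of all genes. Its median was −0.40 over the 8 members and 0.00067 over all genes tested. The members lie side by side and are read from the same cells, so they are not independent of one another.

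The size of the difference depended on the pair. Pair 3 had the lowest KO to WT ratio in 6 of the 8 genes, with log2 ratios of −1.63 for *Ighg1*, −1.42 for *Ighg2b* and −1.09 for *Ighg3*. In pair 1 the same ratios were −0.55, −0.30 and −0.17. Without pair 1, *Ighg1* passed the adjusted threshold (log2 fold change −1.18, adjusted *p* = 0.00400 by limma) and so did *Ighg2b* (−0.94, adjusted *p* = 0.0228), which makes 2 of 8 members against 1.36% of all genes. That fit rests on 2 pairs and leaves out the pair with the smallest difference in both genes. The adjusted *p* of *Ighg1* by limma was 0.984 without pair 2 and 0.0855 without pair 3. With all 3 pairs, the adjusted *p* of *Ighg1* ran from 0.428 to 1.0 over the other tools and settings. Without pair 3, the log2 fold change was −0.64 for *Ighg1*, −0.38 for *Ighg2b*, −0.33 for *Ighg3* and −0.21 for *Ighm*. Levels of plasmablast genes also differed in pair 3. The summed level of the 7 plasmablast markers was 15972, 12008 and 24686 normalized counts in WT and 20451, 11617 and 14567 in KO, so that WT of pair 3 was the highest library for this list as it was for *Ighg1*, *Ighg2b* and *Ighg3*. In pair 1 that sum was higher in KO while *Ighg1* was lower, and its part in the differences was not tested.

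**Figure D3:**
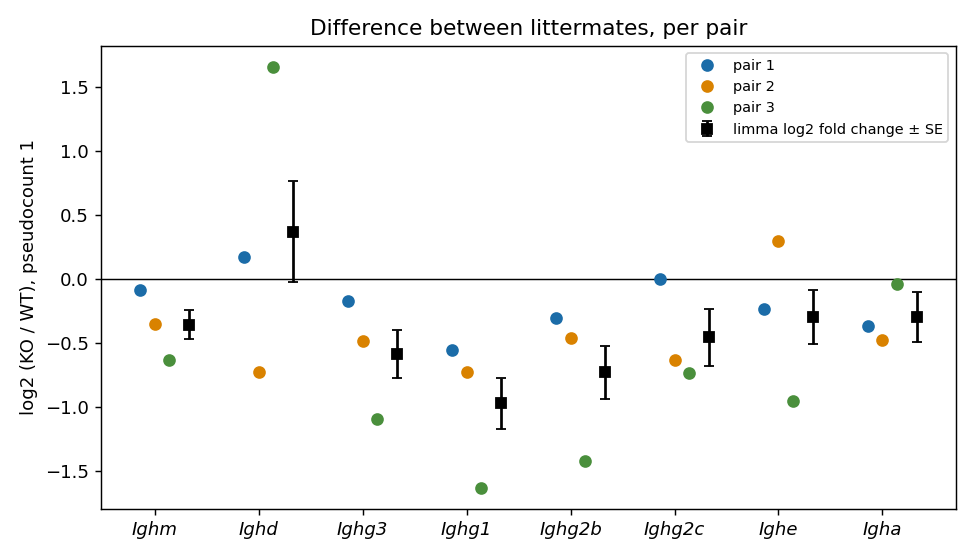
Log2 ratio of KO to WT (normalized count + 1) for each gene, as 1 point per pair of littermates, with the limma log2 fold change ± SE as a black square. All 3 points lie below 0 for *Ighm*, *Ighg3*, *Ighg1*, *Ighg2b*, *Ighg2c* (pair 1 almost at 0) and *Igha*, and pair 3 is at 1.66 for *Ighd* and −1.63 for *Ighg1*.

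Because all 8 genes are measured in the same library, their shares do not depend on how libraries are scaled to each other. The share of *Ighm* among heavy chain constant fragments was 66.13%, 37.26% and 47.98% in the WT libraries of pairs 1, 2 and 3 and 72.55%, 41.66% and 63.19% in the KO libraries. The share of *Ighg1* was 31.0%, 56.4% and 47.6% in WT and 24.5%, 48.5% and 31.4% in KO. In every pair the KO library thus held relatively more *Ighm* and less *Ighg1*. The full range over the pairs of a genotype was wider than the difference between genotypes in any pair. The difference was 8.67 ± 5.75 percentage points (SD over 3 pairs) for *Ighm* and −10.2 ± 5.22 for *Ighg1*. An exact sign-flip permutation test over the 3 pairs gave *p* = 0.25 for each (two-sided), the smallest value 3 pairs allow, and 0.333 after adjustment over 4 measures. The counting error was small beside these differences: the *Ighm* share of the KO library of pair 2, which had the fewest fragments on the 8 genes, had a 95% Wilson interval of 41.2% to 42.2%. Such intervals cover counting error only.

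The ratio of *Ighg1* to *Ighm* states the same contrast in 1 number. It was 0.468, 1.51 and 0.992 in WT and 0.338, 1.17 and 0.498 in KO, on the scale of normalized counts. The log2 ratio was lower in KO by 0.47, 0.38 and 1.00 in pairs 1, 2 and 3, a mean of −0.62 ± 0.33 (SD, 3 pairs; exact sign-flip permutation *p* = 0.25, adjusted 0.333). The ratio in KO of pair 2 was above that in WT of pairs 1 and 3, so the order of the genotypes appeared within pairs and not across them. The level of *Ighm* was itself lower in each KO library, and the lower ratio means that the difference in *Ighg1* was larger than that in *Ighm* in all 3 pairs.

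The genes for both IL-4 induced classes did not move in step. *Ighe* stood at 5.34%, 8.23% and 5.98% of the *Ighg1* level in WT and at 6.66%, 16.8% and 9.58% in KO. The ratio was higher in KO in 3 of 3 pairs, by 0.32, 1.03 and 0.68 on the log2 scale (mean 0.68 ± 0.35, SD). Against *Ighm*, in contrast, *Ighe* had no common direction, with log2 differences of −0.15, 0.65 and −0.32. The share of *Ighe* among heavy chain constant fragments was largest in pair 2 of both genotypes, at 4.64% in WT and 8.14% in KO, where the share of *Ighm* was smallest. These ratios were chosen with the levels known and were given no test.

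The ratio of *Ighd* to *Ighm* rests on gene counts and does not isolate the choice between them in the shared primary transcript. It was 0.626%, 1.27% and 0.374% in WT and 0.749%, 0.977% and 1.83% in KO. It was higher in KO in pairs 1 and 3 and lower in pair 2 (mean log2 difference 0.73 ± 1.39, SD over 3 pairs; exact sign-flip permutation *p* = 0.75, adjusted 0.75). *Zfp318*, a nuclear factor that IgD expression requires, had 489, 391 and 324 normalized counts in WT and 500, 325 and 584 in KO. Its lowest WT and highest KO library were both those of pair 3, the same libraries as for *Ighd* within each genotype. Several other B cell genes, named after their values were seen, had the same lowest WT and highest KO library (*Ms4a1*, *Cd22*, *Pax5*, *Bach2* and *Bcl6*), so the pattern was not particular to *Zfp318*, whose log2 fold change was 0.20 (SE 0.20, unadjusted *p* = 0.338 by limma).

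**Figure D4:**
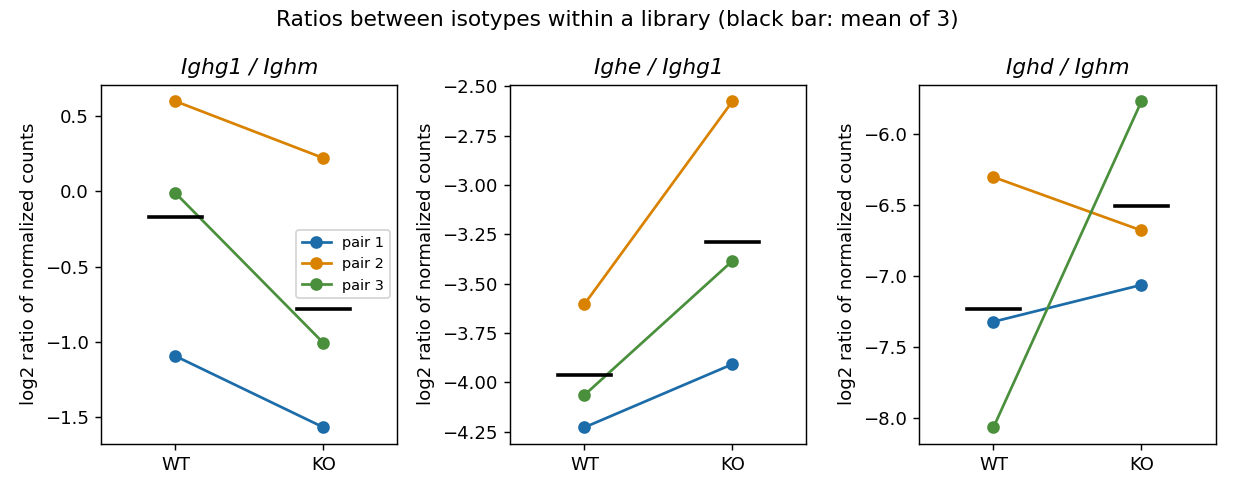
Log2 ratios of normalized counts between isotypes within each library, with a line joining littermates and a black bar at the mean of 3. *Ighg1* to *Ighm* was lower and *Ighe* to *Ighg1* higher in KO in each pair, by means of −0.62 and 0.68, whereas *Ighd* to *Ighm* had no common direction.

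**Figure D5:**
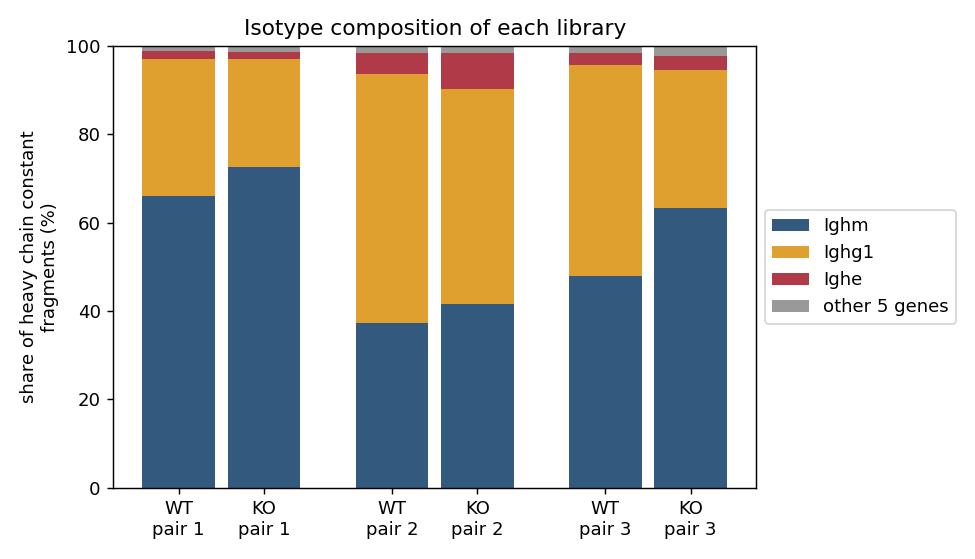
Share of each isotype (% of fragments on the 8 heavy chain constant genes) in the 6 libraries, set out by pair. *Ighm* runs from 37.3% in WT of pair 2 to 72.5% in KO of pair 1, and in each pair the KO bar holds more *Ighm* and less *Ighg1* than the WT bar.

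Summed over the 8 genes, the heavy chain constant level was 91237, 52027 and 114708 normalized counts in WT and 78655, 36539 and 56233 in KO. That is 1.45%, 0.818% and 1.77% of all fragments on genes in WT and 1.25%, 0.584% and 0.912% in KO. Of the 37 mitochondrial genes listed, 0 held a fragment, so mitochondrial transcripts are not part of these percentages. The sum was lower in each KO library than in its littermate, by 0.21, 0.51 and 1.03 on the log2 scale. The 6 genes downstream of *Ighd*, which a cell expresses with a variable exon only after switching, made up 33.5%, 62.3% and 51.8% of the heavy chain fragments in WT and 26.9%, 57.9% and 35.6% in KO. Within the 4 IgG genes *Ighg1* took nearly all fragments in both genotypes, 97.2% to 98.0% in WT and 96.6% to 97.6% in KO.

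The light chains and J chain are the partners of these heavy chains in the antibody. *Igkc*, the kappa constant gene, had 23749, 16808 and 37309 normalized counts in WT and 16879, 9681 and 14006 in KO. It was lower in each KO library, with a log2 fold change of −0.90 (SE 0.16, unadjusted *p* = 0.00118, adjusted *p* = 0.693 by limma). The lambda constant genes *Iglc1*, *Iglc2* and *Iglc3* had log2 fold changes of −0.34, −0.12 and −0.13. *Jchain*, which links IgM and IgA into polymers, had log2 ratios of 0.42, −0.25 and −1.57 in pairs 1, 2 and 3. In this list of 5 genes, limma gave 1 lower gene and no higher one at the unadjusted threshold of 0.05, against 3.03% lower and 1.67% higher of all genes, and the median log2 fold change was −0.34.

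The machinery that makes and directs isotypes was measured as a set of lists around the 8 genes, and 0 genes of any list passed the adjusted threshold. Of 39 genes of class switch recombination, 2 were higher and 0 lower at the unadjusted threshold, against 1.67% and 3.03% of all genes, and the median log2 fold change was 0.001. The 2 higher genes were *Exo1*, an exonuclease of mismatch repair (log2 fold change 0.25, unadjusted *p* = 0.0202), and the DNA ligase gene *Lig1* (0.20, unadjusted *p* = 0.0499), both by limma.

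Among 22 signals and transcription factors that direct switching, 1 was lower and 0 were higher, with a median of 0.05. A single gene of 22 is near the 3.03% of all genes that were lower. The lower one was *Il4ra*, the IL-4 receptor chain, with 5795, 5413 and 6714 normalized counts in WT and 5287, 4799 and 6107 in KO (log2 fold change −0.15, SE 0.06, unadjusted *p* = 0.0396 by limma). It was lower in each KO library by a similar step, and the groups overlapped. *Stat6*, which carries the IL-4 signal to the nucleus, had a log2 fold change of 0.05 (SE 0.07). Of 18 genes for processing the secreted form and for the choice between IgM and IgD, 0 were lower and 0 higher, with a median of 0.006, and *Ell2*, an elongation factor that favours the secreted poly(A) site, had a log2 fold change of −0.14 (SE 0.09). Of 9 receptor partners and Fc receptors, 1 was lower and 0 were higher, again with 3.03% and 1.67% of all genes as the background, and the median was −0.03. The lower one was *Cd79a*, a signalling chain of the membrane receptor, with a log2 fold change of −0.21 (SE 0.08, unadjusted *p* = 0.0387 by limma).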

How the data were processed

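Total RNA, depleted of rRNA, was made into strand-specific libraries. According to the methods and the submitters' processing notes, the authors aligned reads with STAR 2.6.1a to GRCm38 (mm10), counted properly paired fragments on exons with featureCounts (Subread 1.6.3) and Gencode vM19, kept a mapping quality of at least 10, and scaled each library by its DESeq2 size factor. The deposited file holds the resulting signal (normalized counts) of 54446 genes. The quality filter leaves out fragments shared by near-identical sequences, and scaling hides a change common to most transcripts.

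Symbols and exons were taken from Gencode vM21, which matched 54409 identifiers. Fragments were recovered from the values, 100% of which were whole when divided by the value of 1 fragment (tolerance 0.001). limma 3.58.1 (R 4.3.3, with a trend) was run on log2(normalized count + 1) for the 12322 genes whose mean was 10 or more. Genotype and pair were terms, tests were two-sided, and Benjamini-Hochberg adjusted *p*-values were held against 0.05. All 8 members passed that filter. Fold changes on this scale understate those of low genes. The recovered fragments were tested with edgeR 4.0.16 (quasi-likelihood) and DESeq2 1.42.0 as alternatives, and the scripts were checked on simulated data. Shares used fragments, and 4 measures of composition had an exact sign-flip test.

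The littermates pair the samples per the methods. Deviations from the group means correlated over genes by 0.328, 0.685 and 0.170 in pairs 1, 2 and 3, and no libraries were duplicates. Between a KO and a WT library of different pairs, the correlations ran from −0.497 to 0.282. The KO library of pair 3 correlated more with WT of pair 1 (0.282) than with its own littermate. KO of pair 1 with WT of pair 3 (0.260) was also above pair 3, so these values do not bear out that pair. Depth was 5393558 to 6793520 fragments per library. Other settings were pseudocounts, filters, scalings, a fit without the pair and fits without each pair. The members and lists were chosen with earlier results of these data known. Named genes were the 8 members, *Tent5c*, all of the light chain and J chain list, and from other lists the genes set in advance and the largest changes, of which a selection is given.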

Additional observations from a re-analysis of the deposited data

How the results depend on the processing

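The direction of the log2 fold change held for *Ighm*, *Ighg3*, *Ighg1*, *Ighg2b*, *Ighg2c* and *Igha* under each tool, pseudocount, filter and scaling that gave a value. It also held without each pair, but these genes were lower in KO in all 3 pairs, so leaving out a pair could not reverse it. A mean of at least 50 left *Ighg2c* and *Igha* untested. Without the block for pairs, 0 members were called, and the block changed no other call. With complete pairs, the difference in the *Ighg1* share (−10.2 percentage points) and the log2 fold change of *Ighg1* (−0.97) are the same without the block by arithmetic. Only their *p*-values could change. For the *Ighg1* share, an exact permutation test without pairs gave *p* = 0.5, against 0.25 with sign flips. Leaving out 1 pair at a time gave 0 to 168 genes lower, 0 to 3 genes higher and 0 to 2 members called. The highest of each came without replicate 1, and without replicate 2 there was 1 gene lower. DESeq2 gave 22 lower and 1 higher. Without replicate 3, *Ighd* turned to −0.27 (range without a pair −0.27 to 0.92), *Ighe* to 0.034 (−0.59 to 0.034) and the log2 ratio of *Ighd* to *Ighm* to −0.058 (range without a pair −0.058 to 1.28), and without replicate 1 *Tent5c* turned to −0.033 (−0.033 to 0.52). Left-out pairs moved *Ighg1* between −1.18 and −0.64, *Ighm* between −0.49 and −0.21, the *Ighm* share between 5.41 and 10.8 points, the *Ighg1* share between −12.003 and −7.18 points, the ratio of *Ighg1* to *Ighm* between −0.73 and −0.43, the summed level between −0.77 and −0.36 and the median of members between −0.58 and −0.32. Quantile normalization, which compresses the top ranks, moved *Ighg1* to −0.67 and *Ighm* to −0.22. Division by secreted transcript length, added after the data were seen, gave share differences of 8.91 points for *Ighm* and −10.6 for *Ighg1*. With 3 pairs the exact test cannot go below 0.25, and few fragments limit *Ighg2c* and *Igha*.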

Other observations

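Heavy and light chain constant genes did not differ by equal amounts. The log2 ratio of their summed fragments was higher in KO by 0.21, 0.11 and 0.26 in pairs 1, 2 and 3 (mean 0.19 ± 0.07, SD). The log2 ratio of heavy chain V to heavy chain constant fragments was lower in KO by 0.06, 0.31 and 0.43 (mean −0.27 ± 0.19, SD). Fragments on V genes depend on unique alignment, and neither ratio was tested.

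Among all genes tested, those whose centred log2 profile over the 6 libraries lay nearest to *Ighg1* were the V genes *Igkv4-86*, *Igkv4-50* and *Ighv1-12*, with root mean square differences of 0.105, 0.118 and 0.123 on the log2 scale, and the nearest member was *Ighg3* at 0.276. For *Ighg2b* the nearest gene was *Igkv6-23* at 0.165. *Ighm* was nearest to the pseudogene *Gm7809* (0.113) and to *Ighv8-8* (0.216), *Ighg3* to *D430019H16Rik* (0.093), *Ighe* to *Susd1* (0.156) and *Ighd* to *Rasgrf1* (0.169). These are descriptions over 6 libraries that share their pairs and scaling.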
